A study of Mus musculus with 14 samples.

Results

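Hox genes encode homeodomain transcription factors that lie in 4 clusters and are numbered by paralog group. In the embryo they are switched on in the order of their position in the cluster, so that low-numbered (3′) genes are active from the hindbrain and pharyngeal arches backwards and high-numbered (5′) genes only in the trunk and tail. Vascular cells keep part of this code in the adult, and the arch and ascending aorta are known for a lower level of posterior Hox genes than the descending and abdominal aorta. The Hox genes were read here as a label of aortic position in bulk RNA of ascending aorta. They were chosen by name alone, as every row of the gene table whose symbol is Hox, a cluster letter a to d and a number. The rule found 33 of the 32289 genes in the table: 10 of HoxA, 9 of HoxB, 7 of HoxC and 7 of HoxD. Of these, 7 belong to paralog groups 1 to 3 (called anterior here), 15 to groups 4 to 8 (central) and 11 to groups 9 to 13 (posterior). Hox genes with no row in the table, such as Hoxd1 and Hoxa13, could not be read.

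The libraries came from ascending aortic tissue of C57BL/6 mice, collected in week 6 of the model. The labels gave 4 groups: PBS (3 libraries), BAPN (4), BAPN+Cilengitide (3) and BAPN+SB273005 (4). BAPN is β-aminopropionitrile, a compound that blocks lysyl oxidases and so the cross-linking of elastin and collagen, and feeding it is a common way to induce aneurysm and dissection of the thoracic aorta. Cilengitide and SB273005 are antagonists of integrin αV, and both inhibitor groups also received BAPN. The labels used here state neither age nor sex, and do not say whether each library is 1 animal. The p-values therefore measure the spread between these samples, which may be technical.

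Library totals ran from 49027885 to 72584877 counts, of which Hox genes held 5086 to 11190 (0.0098% to 0.0213%). Some libraries stood apart before any Hox gene was compared. H2-Ea, which the C57BL/6 strain is known not to transcribe because of a promoter deletion, was chosen after its values were seen. It had 0 counts in 6 libraries (PBS 1 to 3 and BAPN+SB273005 1 to 3) and 83 to 130 counts in the other 8. In the same 6 libraries the kidney gene Umod lay at 7.73 to 11.6 FPKM (fragments normalised to exon length and library size), against 19.8 to 25.8 FPKM in the other 8. BAPN+Cilengitide and BAPN therefore differ from PBS in this respect as well as in treatment, and both differences cannot be told apart. BAPN+SB273005 1 to 3 differ in the same way from every BAPN and BAPN+Cilengitide library, so those comparisons largely share the limit. BAPN+SB273005-2 had the lowest sum over 10 smooth muscle genes, 1199 FPKM against 4636 to 10813 in the other 13, and 37.2% of its FPKM was mitochondrial. All 10 smooth muscle, 10 endothelial and 10 fibroblast genes reached 1 FPKM in at least 3 libraries; these markers are shared by all aortic segments.

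The expressed Hox genes were anterior and central, nearly all of HoxA and HoxB, with Hoxd8 from HoxD. Of the 33 genes, 12 reached a mean of 1 FPKM in at least 1 group, among them Hoxa2 to Hoxa5, Hoxb2 to Hoxb7 and Hoxd8. Of these 12, Hoxb7 reached 1 FPKM in 1 library only, BAPN+Cilengitide-1, as did Hoxa7 and Hoxb8 outside the 12. The remaining 19 stayed under 1 FPKM in every library. All 11 posterior genes of the table were among them, with a highest value of 0.824 FPKM for Hoxd9 in BAPN+Cilengitide-2. HoxA and HoxB supplied 40.3% to 62.2% and 28.8% to 49.8% of the summed Hox FPKM of a library. HoxC supplied 1.27% to 4.29% and HoxD 2.97% to 10.8%. The plot of Hox levels by cluster shows each library.

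**Figure D1:**
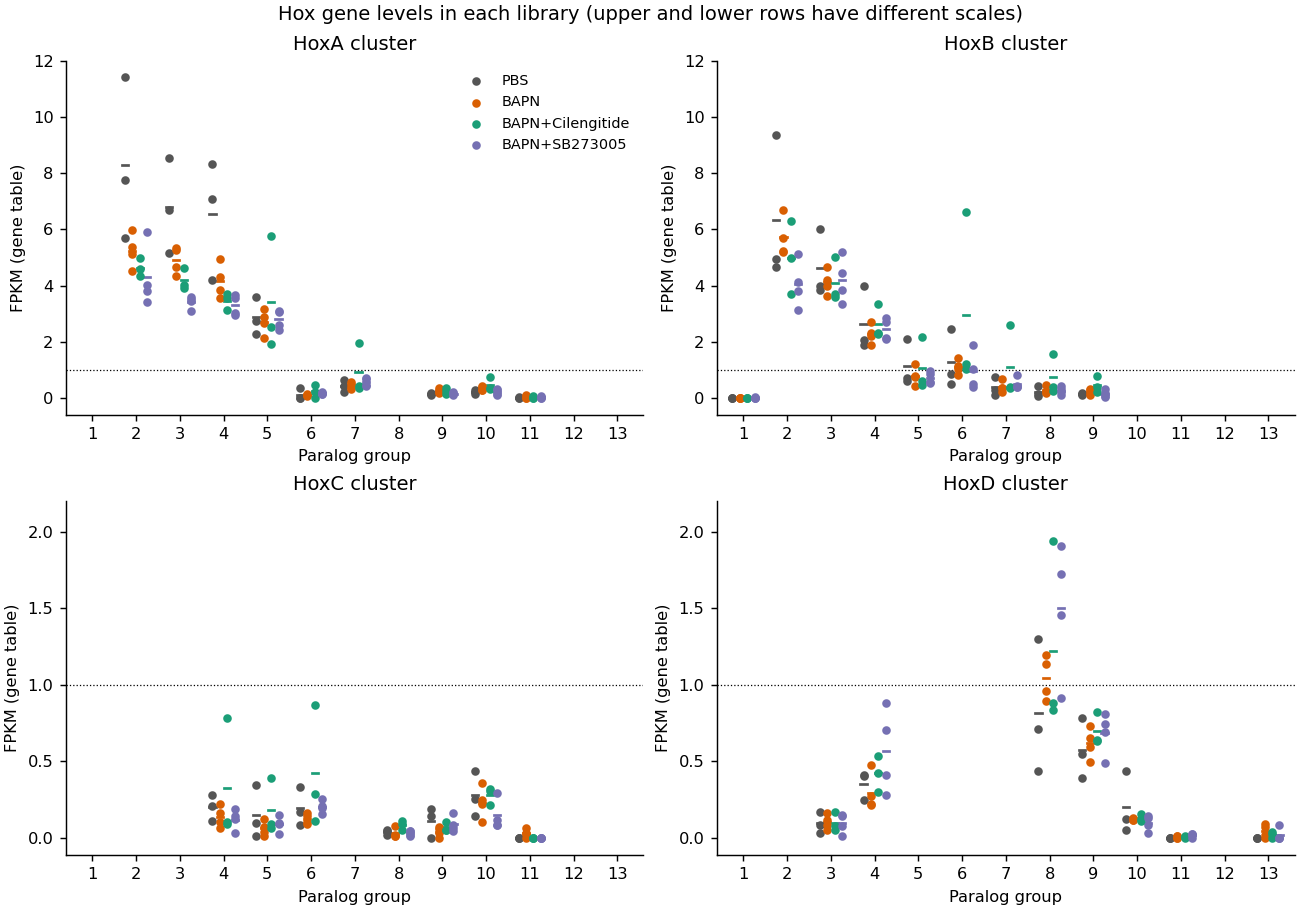
FPKM from the gene table (y axis, linear, with different scales in the upper and lower rows) against paralog group (x axis) in each of the 4 clusters. Each point is 1 library coloured by group, each short bar a group mean, and the dotted line 1 FPKM: the plotted group means at 1 FPKM or more in HoxA and HoxB lie in groups 2 to 7, HoxC stays under 1 FPKM, and in HoxD only Hoxd8 exceeds it.

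Within HoxA the level dropped between neighbours. Hoxa5, a gene of the cervical and upper thoracic level, had a mean of 2.92 FPKM over the 14 libraries (lowest 1.93, highest 5.78). Hoxa6, whose annotated start lies 5′ of it with 1700 bp between the gene bodies, had a mean of 0.146 FPKM (lowest 0, highest 0.469), 19.99-fold below Hoxa5. The ranges of both genes did not overlap in any library, but Hoxa6 rests on 0 to 26 counts a library. Further 5′, Hoxa7 had a mean of 0.577 FPKM, Hoxa9 0.195, Hoxa10 0.302 and Hoxa11 0.0221. In HoxB the decline had no such step, with means of 5.21 FPKM for Hoxb2, 4.24 for Hoxb3, 2.47 for Hoxb4, 0.903 for Hoxb5, 1.49 for Hoxb6, 0.57 for Hoxb7, 0.352 for Hoxb8 and 0.229 for Hoxb9. Hoxb1, the rhombomere 4 gene at the 3′ end of HoxB, was listed at 0 in 13 libraries and at 0.0292 FPKM in 1. HoxD, for which Hoxd1 has no row, ran the other way from Hoxd3 to Hoxd8. Hoxd3 had a mean of 0.0991 FPKM, Hoxd4 0.413 and Hoxd8 1.16. The level fell again to 0.645 for Hoxd9, 0.134 for Hoxd10 and 0.008 for Hoxd11. The 7 HoxC genes had means between 0.009 FPKM (Hoxc11) and 0.227 FPKM (Hoxc10).

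The order of the highest genes depended on which deposited table was read. The gene table divides by the length of all annotated exons of a gene together, 6014 bases for Hoxa3, and placed Hoxa2 first (5.50 FPKM), then Hoxb2 (5.21) and Hoxa3 (4.73). Summing the transcript table instead gave 11.3 FPKM for Hoxa3, 9.83 for Hoxb2, 6.15 for Hoxb3 and 5.50 for Hoxa2. Of the Hoxa3 transcript FPKM, 95.4% came from 1 transcript of 2591 bases (ENSMUST00000114434) that starts beyond Hoxa6, at base 52213115 of chromosome 6. Its gene body spans Hoxa4, Hoxa5 and Hoxa6. Of the Hoxb3 sum, 87.5% came from ENSMUST00000093944, which starts at base 96323326 of chromosome 11. Hoxa3 exons share 1529 bases with 4 genes on the other strand, 503 of them with Hoxaas2. Also on the other strand, Hoxa4 shares 255 bases with Gm29430, and Hoxb3 shares 2250 and Hoxb2 953 with Hoxb3os. Whether counting used the strand is not known here, so reads of these pairs cannot be told apart. On the same strand, Hoxa2 shares 267 bases and Hoxa3 482 with Gm28308, and strand cannot separate reads of those.

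Promoter sequence was shown for the tested Hox genes whose RefSeq window held no annotated exon, so that a called gene (Hoxa2) stands beside uncalled ones. Windows were found for 19 of the 33 genes. Each sequence is the 250 bases before the RefSeq start (GRCm38.p6), 5′ to 3′ on the gene's strand. Capitals mark motif letters found on either strand: TGATNNAT (Pbx-Hox), TGACAG (Meis), AGGTCA (the core motif of retinoid receptors, of which a response element needs more than a single copy), GGGCGG (Sp1), CCAAT (the CCAAT box) and TATAAA (the TATA box).
Hoxa2, chr6:52164832-52165081, minus strand: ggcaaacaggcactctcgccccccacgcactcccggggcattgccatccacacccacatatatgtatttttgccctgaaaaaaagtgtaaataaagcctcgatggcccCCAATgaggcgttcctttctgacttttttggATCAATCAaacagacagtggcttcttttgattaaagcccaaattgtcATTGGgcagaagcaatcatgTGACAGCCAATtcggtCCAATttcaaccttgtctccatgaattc
Hoxa5, chr6:52204588-52204837, minus strand: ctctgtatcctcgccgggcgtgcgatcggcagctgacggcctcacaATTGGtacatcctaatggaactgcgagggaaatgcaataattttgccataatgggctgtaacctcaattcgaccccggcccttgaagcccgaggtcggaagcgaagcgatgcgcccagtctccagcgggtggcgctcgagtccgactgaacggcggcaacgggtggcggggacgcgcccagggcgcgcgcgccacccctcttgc
Hoxb4, chr11:96318017-96318266, plus strand: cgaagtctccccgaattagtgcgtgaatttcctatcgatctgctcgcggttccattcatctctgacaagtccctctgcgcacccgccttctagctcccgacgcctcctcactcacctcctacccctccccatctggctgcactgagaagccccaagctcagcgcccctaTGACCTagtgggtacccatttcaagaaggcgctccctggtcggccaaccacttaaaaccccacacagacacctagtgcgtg
Hoxd8, chr2:74704365-74704614, plus strand: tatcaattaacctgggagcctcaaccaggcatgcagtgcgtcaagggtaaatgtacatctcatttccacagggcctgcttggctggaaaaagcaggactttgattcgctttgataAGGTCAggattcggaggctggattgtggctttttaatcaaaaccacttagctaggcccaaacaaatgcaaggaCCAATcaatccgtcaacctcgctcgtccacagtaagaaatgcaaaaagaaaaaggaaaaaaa

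The Hoxa2 window held the CCAAT box 4 times, 1 of them on the reverse strand. It held the Meis motif once, 44 bases before the start, and the Pbx-Hox motif once on the reverse strand, 111 bases before it. Hoxa5 held a single CCAAT on the reverse strand, 204 bases before the start. Hoxb4 held AGGTCA once on the reverse strand, 81 bases before the start, and Hoxd8 held AGGTCA once, 135 bases before the start, and a CCAAT box once, 62 bases before it. No marked match overlapped another in these 4 windows. Among 32817 RefSeq windows of the same length, 7.69% held TGATNNAT, 15.9% TGACAG, 14.03% AGGTCA, 32.7% GGGCGG, 33.8% CCAAT and 12.4% TATAAA. The 4 windows differed in base composition, with 46.4% GC and 6 CpG in Hoxa2, 63.6% and 28 in Hoxa5, 58.0% and 14 in Hoxb4, and 44.4% and 6 in Hoxd8. The median over all windows was 52.4% GC and 6 CpG. A match describes letters only, and binding was not measured.

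Hoxa2, Hoxa3 and Hoxa4 were the Hox genes that differed from PBS. Hoxa2 (chr6:52162417-52164831) patterns the second pharyngeal arch, and Hoxa3 (chr6:52169062-52213336) the third arch, the source of the carotid arteries, thymus and parathyroids. Hoxa4 (chr6:52189671-52191753) acts in the patterning of the neck vertebrae. Against PBS, Hoxa3 and Hoxa4 were lower in both inhibitor groups, Hoxa2 was lower in BAPN+SB273005, and no Hox gene passed the test in BAPN alone.

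Hoxa3 had 8.56, 6.68 and 5.15 FPKM in the PBS libraries and 4.34, 5.35, 4.67 and 5.25 in BAPN. It had 4.01, 3.93 and 4.61 FPKM in BAPN+Cilengitide and 3.08, 3.60, 3.51 and 3.45 in BAPN+SB273005. The 7 inhibitor libraries all lay under the lowest PBS library, while BAPN overlapped PBS in 2 libraries. The means were 6.80 ± 1.71 FPKM (SD, n = 3) in PBS, 4.90 ± 0.481 (n = 4) in BAPN, 4.18 ± 0.375 (n = 3) in BAPN+Cilengitide and 3.41 ± 0.226 (n = 4) in BAPN+SB273005. The same ordering was seen in the summed transcripts, from 12.3 to 20.2 FPKM in PBS to 7.37 to 8.42 in BAPN+SB273005.

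Hoxa2 had 11.4, 7.75 and 5.68 FPKM in PBS, 4.51, 5.13, 5.99 and 5.36 in BAPN, 4.60, 4.35 and 4.97 in BAPN+Cilengitide, and 3.80, 5.92, 3.41 and 4.02 in BAPN+SB273005. The high value of BAPN+SB273005-2 overlapped PBS, and the 3 BAPN+Cilengitide values did not. Hoxa4 had 8.34, 7.10 and 4.21 FPKM in PBS, 3.56, 4.94, 4.32 and 3.83 in BAPN, 3.54, 3.14 and 3.71 in BAPN+Cilengitide, and 3.68, 3.01, 3.56 and 2.94 in BAPN+SB273005. PBS itself was spread widely, with PBS-1 highest and PBS-3 lowest for all 3 genes. The plot of Hoxa2, Hoxa3 and Hoxa4 shows that spread.

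**Figure D2:**
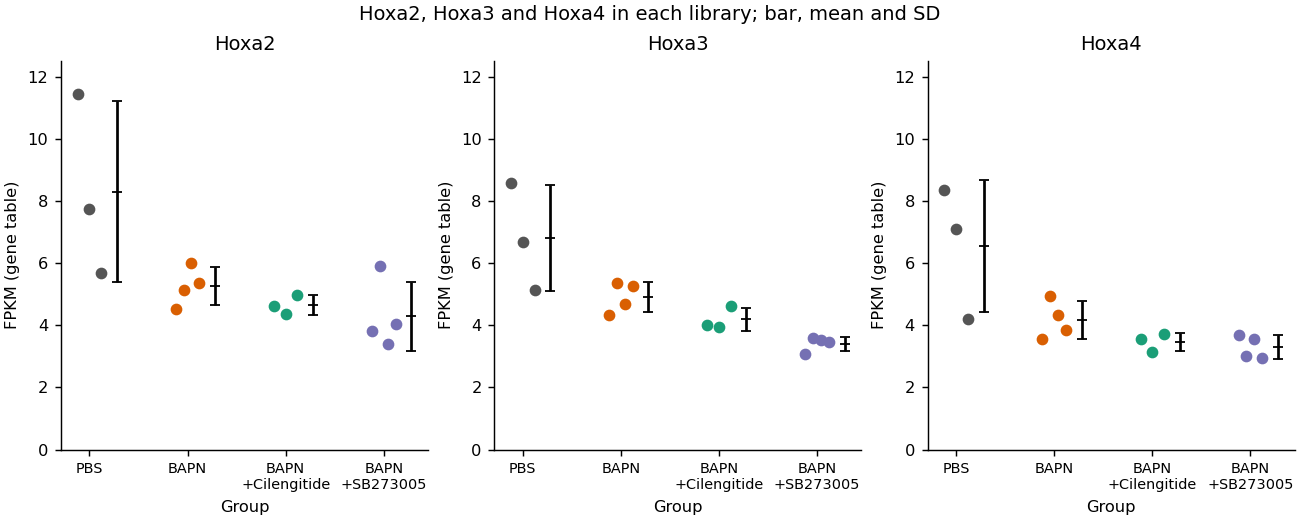
FPKM from the gene table (y axis from 0) of Hoxa2, Hoxa3 and Hoxa4 in each library by group (x axis); points are libraries and bars the mean and SD. Hoxa3 in BAPN+SB273005 lies between 3.08 and 3.60 FPKM, under all PBS libraries, which run from 5.15 to 8.56 FPKM.

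The tests ran across 13294 genes with 1 FPKM or more in at least 3 libraries, by edgeR's quasi-likelihood test with Benjamini-Hochberg adjustment over all of them at a threshold of 0.05. Of the 33 Hox genes, 11 passed this filter (5 anterior, 6 central, 0 posterior). Hoxb5, with 3 libraries at 1 FPKM or more, lay just inside, and Hoxb7, Hoxa7 and Hoxb8, with 1 each, just outside. In BAPN against PBS 0 of 11 Hox genes were called, where the background was 0.233% of all genes tested. At an unadjusted p under 0.05 there were 3 of 11 Hox genes and 1591 of 13294 genes, and DESeq2 called 0 Hox genes. Hoxa3 differed by -0.46 (log2, SE 0.14, edgeR adjusted p = 0.17), Hoxa4 by -0.64 (SE 0.21, adjusted p = 0.19) and Hoxa2 by -0.64 (SE 0.23, adjusted p = 0.27). None of the 11 had BAPN libraries entirely below PBS, a pattern that 7.56% of the genes tested showed.

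In BAPN+Cilengitide against PBS 2 of 11 Hox genes were called, both lower, where 5.58% of genes were called in either direction and 1.6% lower. Hoxa3 fell by 0.65 (log2, SE 0.15, edgeR adjusted p = 0.026) and Hoxa4 fell by 0.87 (SE 0.22, adjusted p = 0.040). Hoxa2 differed by -0.78 (SE 0.25, adjusted p = 0.092) and passed under DESeq2 (adjusted p = 0.032). The FPKM of 3 of 11, Hoxa2, Hoxa3 and Hoxa4, lay entirely below PBS, as for 18.4% of genes. With the replicate number as a block, Hoxa3 was still called (adjusted p = 0.0395 by edgeR) and Hoxa4 was not (-0.85, adjusted p = 0.060). The deviations of same-numbered libraries of these 2 groups from their group means had correlations of 0.268, 0.105 and 0.317. Both calls were lost without any 1 of PBS-1, PBS-2, BAPN+Cilengitide-1 and BAPN+Cilengitide-2, where the Hoxa3 adjusted p lay between 0.090 and 0.11. One call was lost without BAPN-3, BAPN-4, BAPN+Cilengitide-3 or BAPN+SB273005-3. Over all alternatives the edgeR, DESeq2 or limma adjusted p ran from 0.0019 to 0.17 for Hoxa3 and from 0.0042 to 0.14 for Hoxa4.

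In BAPN+SB273005 against PBS 3 of 11 Hox genes were called, all lower, where 13.2% of genes were called in either direction and 5.38% lower. Hoxa3 fell by 0.93 (log2, SE 0.14, edgeR adjusted p = 0.0030), Hoxa4 fell by 0.93 (SE 0.21, adjusted p = 0.014) and Hoxa2 fell by 0.87 (SE 0.23, adjusted p = 0.030). The FPKM of 2 of 11, Hoxa3 and Hoxa4, lay entirely below PBS, as for 14% of genes. With the replicate number as a block Hoxa2 was no longer called (-0.87, edgeR adjusted p = 0.053), though same-numbered libraries of these 2 groups did not all deviate together (0.164, -0.012 and 0.17). Hoxa3 alone was called without PBS-1 or without PBS-2, and it was called without each of the 14 libraries in turn. In the 6 libraries with 0 H2-Ea counts, 3 a group, the differences were -0.91 for Hoxa3 (edgeR adjusted p = 0.0501), -0.86 for Hoxa4 (adjusted p = 0.14) and -0.82 for Hoxa2 (adjusted p = 0.22). Over all alternatives the adjusted p by edgeR, DESeq2 or limma ran from 1.4e-07 to 0.0501 for Hoxa3, from 0.00044 to 0.14 for Hoxa4 and from 0.0041 to 0.22 for Hoxa2.

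The neighbours of these genes did not share a call. Hoxa5, the next gene 5′ of Hoxa4, differed from PBS by 0.03 in BAPN+SB273005 (log2, 95% interval -0.63 to 0.68) and by 0.29 in BAPN+Cilengitide (-0.41 to 0.99). Of the HoxB paralogs, Hoxb2 differed in BAPN+SB273005 by -0.57 (SE 0.23, edgeR adjusted p = 0.12), Hoxb3 by -0.06 (95% interval -0.46 to 0.34) and Hoxb4 by -0.03 (-0.56 to 0.50). Hoxd8 differed by 0.91 (SE 0.41, adjusted p = 0.16). Whether the HoxA genes differed more than their paralogs was not tested.

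**Figure D3:**
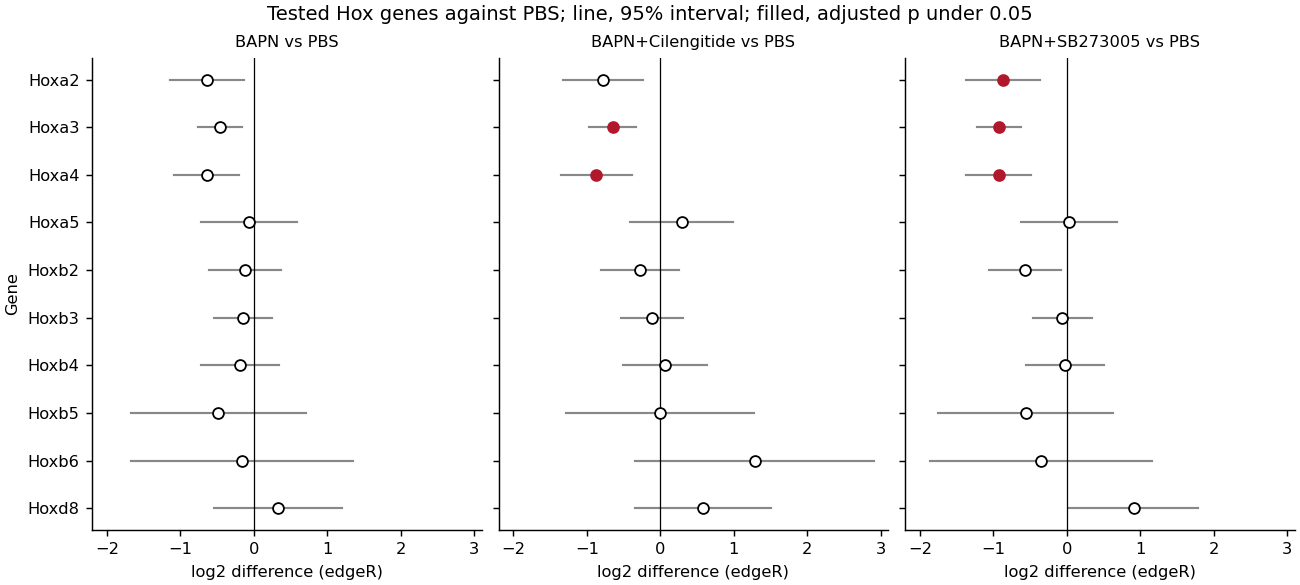
edgeR log2 difference from PBS (x axis) of 10 of the 11 tested Hox genes (y axis) in 3 comparisons that share the PBS libraries; lines are 95% intervals and filled points have an adjusted p under 0.05. Hoxa3 and Hoxa4 are filled in both inhibitor comparisons and Hoxa2 in BAPN+SB273005, and the intervals of Hoxb5 and Hoxb6 are the widest.

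Between the BAPN-fed groups no Hox gene passed the edgeR test. In BAPN+Cilengitide against BAPN 0 of 11 were called, where 0% of all genes were called by edgeR (807 at an unadjusted p under 0.05, 21 by DESeq2). Of the Hox genes, 0 had an unadjusted p under 0.05 and 0 were called by DESeq2. In BAPN+SB273005 against BAPN 0 of 11 were called, where 0.0301% of genes were called, and 1 had an unadjusted p under 0.05, as did 2146 of all 13294 genes. That gene was Hoxa3, at -0.47 (log2, SE 0.13, edgeR adjusted p = 0.16), and DESeq2 called it (adjusted p = 0.039). All 4 BAPN+SB273005 libraries of Hoxa3 lay under all 4 BAPN libraries, a pattern whose share over all genes was not counted here. All 4 BAPN libraries had H2-Ea counts and BAPN+SB273005 1 to 3 had 0, so that split largely goes with treatment here. Over all alternatives the Hoxa3 adjusted p by edgeR, DESeq2 or limma ran from 0.039 to 0.69. In BAPN+SB273005 against BAPN+Cilengitide 0 of 11 were called, where 0% of all genes were called by edgeR (1224 at an unadjusted p under 0.05, 39 by DESeq2). Of the Hox genes 0 were called by DESeq2 and 1, Hoxb6, had an unadjusted p under 0.05. Hoxa3 differed by -0.28 in that comparison (95% interval -0.58 to 0.02), Hoxa4 by -0.06 (-0.51 to 0.39) and Hoxa2 by -0.09 (-0.60 to 0.42).

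Markers of the cells in the wall moved in the same comparisons, and their part in the Hox differences was not tested. In bulk tissue, fewer cells of a type and less RNA per cell cannot be told apart. In BAPN+SB273005 against PBS, where 7.82% of all genes tested were called higher and 5.38% lower, 10 of 10 macrophage genes rose (summed 159 to 303 FPKM in PBS, 528 to 1118 in BAPN+SB273005) and 4 of 10 smooth muscle genes fell (9035 to 10813 against 1199 to 7078). In the same comparison 4 of 10 fibroblast genes rose (1545 to 1990 against 2533 to 3287) and 7 of 10 tested liver genes fell (59.1 to 603 against 54.6 to 171). In BAPN+Cilengitide against PBS, where 3.98% were called higher and 1.6% lower, 9 of 10 macrophage genes rose (to 512 to 1022 FPKM), 3 of 10 fibroblast genes rose, 5 of 10 liver genes fell, and 0 of 10 smooth muscle genes were called. Of 12 tested kidney genes, 2, 5 and 1 rose in BAPN, BAPN+Cilengitide and BAPN+SB273005 against PBS, beside 0.181%, 3.98% and 7.82% of all genes, so that the last count is near the background. The kidney sum was 273 to 329 FPKM in PBS, 223 to 297 in BAPN, 278 to 294 in BAPN+Cilengitide and 270 to 387 in BAPN+SB273005. BAPN and BAPN+Cilengitide also differ from PBS in H2-Ea counts and Umod, as given above. PBS-1, the highest library for Hoxa2, Hoxa3 and Hoxa4, also had the highest liver sum, 603 FPKM against 54.6 to 232 in the other 13. BAPN+SB273005-2, with the lowest smooth muscle sum, had the highest Hoxa3 of its group at 3.60 FPKM and the highest Hoxa2 at 5.92. Its FPKM total was also the highest, 453597 against 312030, 356351 and 312394 in the rest of the group. The place of Hoxa3 as highest does not hold once FPKM is divided by these totals.

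One library of the BAPN+Cilengitide group had a higher share of central Hox genes than the rest. BAPN+Cilengitide-1 held the highest value of 14 of the 33 genes, 11 central, 3 posterior and 0 anterior. PBS-1 held the highest value of 10, of which 5 were anterior. Central genes made up 57.1% of the summed Hox FPKM in BAPN+Cilengitide-1 and 33.1% to 47.7% in the other 13. Anterior genes made up 37.6% against 47.0% to 63.4%. By counts in place of FPKM its central share was 44.5%, still the highest of the 14, and its anterior share was 49.9%, the larger part.

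**Figure D4:**
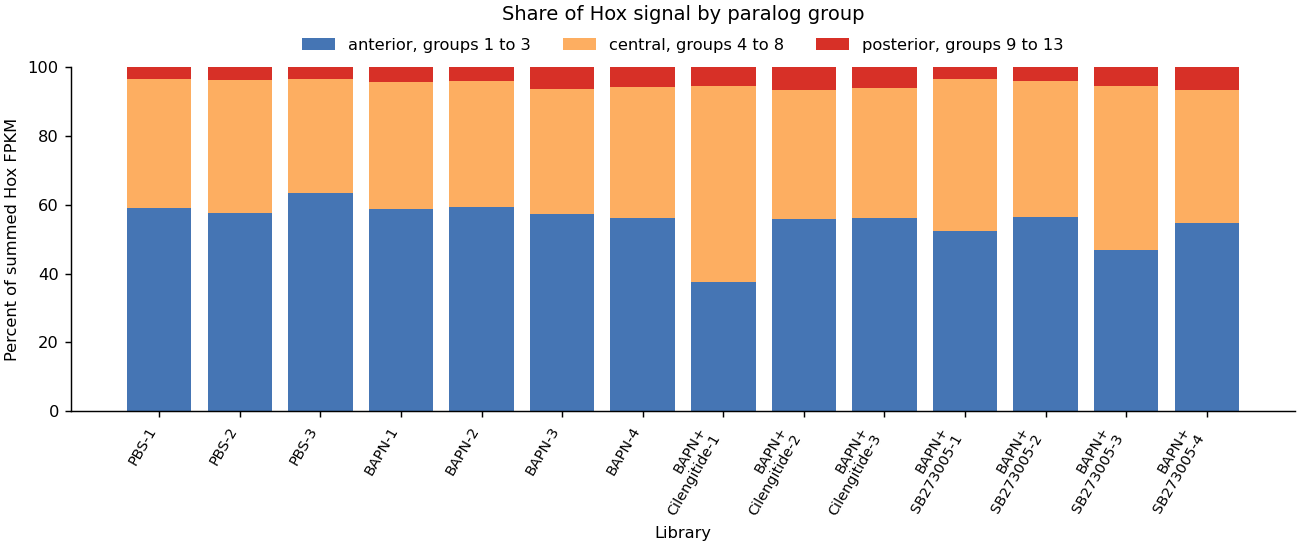
Percent of the summed FPKM of all 33 Hox genes (y axis) from anterior, central and posterior paralog groups, stacked for each library (x axis). BAPN+Cilengitide-1 has the largest central share of the 14 libraries, 57.1%, and posterior shares run from 3.24% to 6.70%.

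Hoxb6 (chr11:96292476-96301569), a thoracic-level gene, had 2.45, 0.856 and 0.492 FPKM in PBS, 0.808, 1.03, 1.14 and 1.42 in BAPN, 6.62, 1.03 and 1.196 in BAPN+Cilengitide, and 1.03, 0.38, 1.89 and 0.484 in BAPN+SB273005. BAPN+Cilengitide-1, at 816 counts, was 2.71-fold above the next library, PBS-1, and the remaining libraries had 50 to 202 counts. Hoxb7 reached 2.61 FPKM there against 0.0884 to 0.805 in the other 13, Hoxb8 1.57 against 0.0702 to 0.452, and Hoxa7 1.97 against 0.217 to 0.719. Hoxc4 reached 0.780 FPKM against 0.0296 to 0.283, and Hoxc6 0.866 against 0.0852 to 0.334. Not every gene 5′ of them was high there: Hoxd9 (0.635 FPKM) and Hoxc10 (0.213) lay inside the range of the other 13 libraries. Hoxa2, Hoxa3 and Hoxa4 were near the other 2 libraries of the group, at 0.987, 0.938 and 1.04 times their mean.

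Hoxa5 had 3.58, 2.74 and 2.27 FPKM in PBS, 3.16, 2.66, 2.15 and 2.87 in BAPN, 5.78, 1.93 and 2.52 in BAPN+Cilengitide, and 3.11, 2.59, 3.06 and 2.40 in BAPN+SB273005. Hoxb5 had 2.09, 0.710 and 0.600 FPKM in PBS, 0.417, 0.759, 0.763 and 1.21 in BAPN, 2.18, 0.456 and 0.586 in BAPN+Cilengitide, and 0.843, 0.554, 0.962 and 0.522 in BAPN+SB273005. For both genes 1 BAPN+Cilengitide library was the highest of the 14, and PBS-1 came second. Hoxb7 had 0.737, 0.280 and 0.0884 FPKM in PBS, 0.193, 0.339, 0.358 and 0.686 in BAPN, 0.372 and 0.353 in the other 2 BAPN+Cilengitide libraries, and 0.379, 0.404, 0.805 and 0.380 in BAPN+SB273005. Its group mean of 1.11 FPKM in BAPN+Cilengitide thus rested on 1 library.

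**Figure D5:**
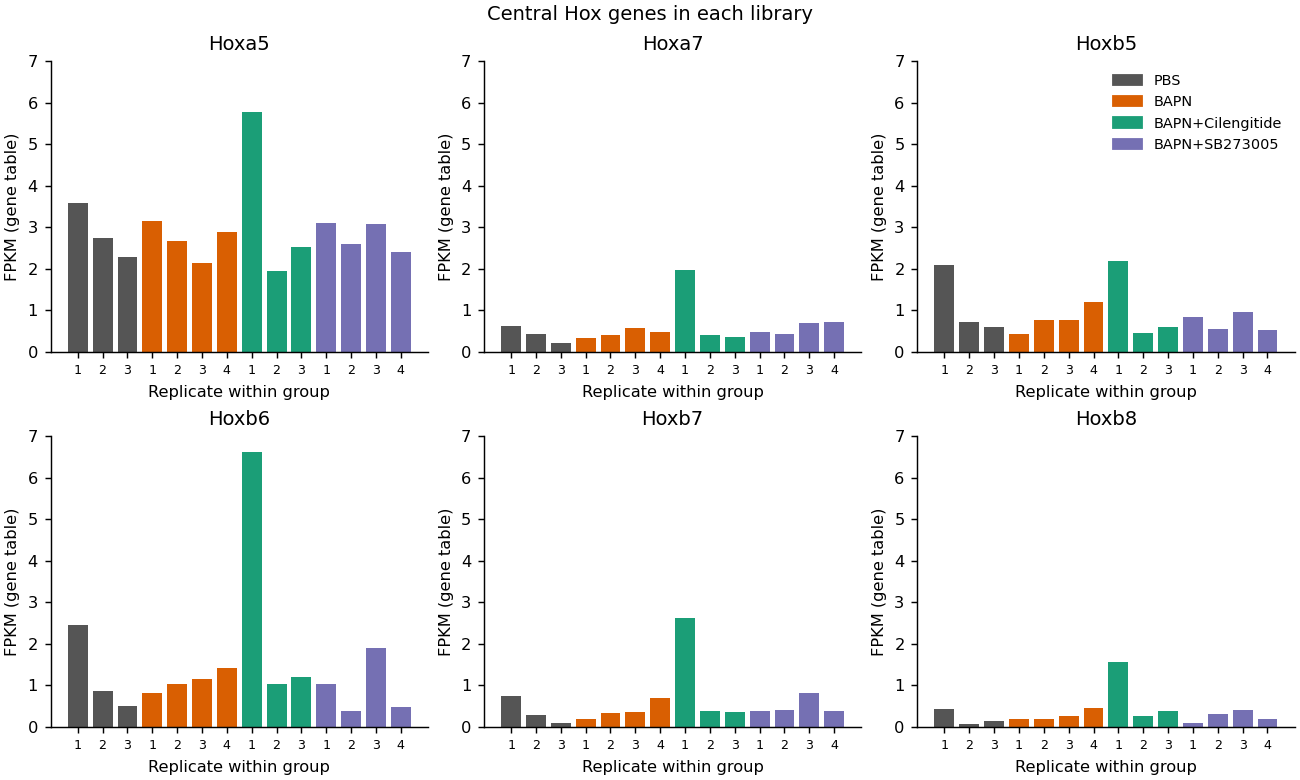
FPKM from the gene table (y axis from 0, the same scale in all panels) of 6 central Hox genes in each library, ordered by group and replicate (x axis). BAPN+Cilengitide-1 has the tallest bar in each panel, 6.62 FPKM for Hoxb6.

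The group test of Hoxb6 followed that library. In BAPN+Cilengitide against PBS the log2 difference was 1.28 (SE 0.76, edgeR adjusted p = 0.38), and without BAPN+Cilengitide-1 it was -0.10 (adjusted p = 0.97, range over all alternatives 0.20 to 0.97). Against BAPN it was 1.44 (SE 0.69, adjusted p = 0.79) and 0.06 without the library. BAPN+SB273005 against BAPN+Cilengitide gave -1.63 (SE 0.70, adjusted p = 0.53) and -0.25 without it. Dropping the filter on low values let all 33 Hox genes into the edgeR fit, and 0 of the 22 added ones were called in any of the 6 comparisons (lowest adjusted p = 0.23).

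Markers of other tissues were read beside this library. For 8 white adipocyte genes it had 748 FPKM, behind BAPN+SB273005-3 (1000.3) and BAPN+SB273005-1 (906), whose Hoxb6 was 1.89 and 1.03 FPKM. Its 10 fibroblast genes summed to 3326 FPKM against 1545 to 3318 in the others, and its 10 Schwann and neural genes to 89.4 against 92.4 to 115. It was second for 12 cardiomyocyte genes (98.1 FPKM, others 18.2 to 157) and for macrophage genes (1022, others 159 to 1118). Hand2, a heart and outflow tract factor chosen after its values were seen, had 3.40 FPKM there and 9.26 to 16.4 in the other 13. Gata4, another cardiac factor chosen the same way, had 0.385 FPKM there, 0.406 in PBS-1, 0.2145 in BAPN-3 and 1.10 to 3.79 in the other 11. The part of these cells in the Hox values was not tested, and with 3 libraries in the group no outlier test was made.

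Hoxb2, a hindbrain and second arch gene, had 9.36, 4.67 and 4.94 FPKM in PBS, 5.25, 6.69, 5.21 and 5.71 in BAPN, 6.29, 3.71 and 4.996 in BAPN+Cilengitide, and 5.12, 3.11, 4.14 and 3.82 in BAPN+SB273005. The BAPN+SB273005 libraries all lay below the BAPN ones, a pattern not counted over all genes. The Hoxb2 difference of -0.45 did not pass (log2, SE 0.21, edgeR adjusted p = 0.32), and the H2-Ea split given above applies to this comparison too. Its transcripts divided unevenly: the retained-intron transcript ENSMUST00000182030 made up 57.9% of Hoxb2 transcript FPKM in BAPN+Cilengitide-1 and 65.1% in BAPN+SB273005-2, against 4.46% to 17.6% in the other 12. Hoxb3 had 6.03, 3.85 and 3.97 FPKM in PBS, 3.99, 4.21, 3.61 and 4.65 in BAPN, 5.02, 3.69 and 3.59 in BAPN+Cilengitide, and 3.83, 5.20, 4.44 and 3.36 in BAPN+SB273005. Hoxb4 had 3.97, 1.89 and 2.05 FPKM in PBS, 2.19, 2.70, 1.88 and 2.29 in BAPN, 3.34, 2.28 and 2.30 in BAPN+Cilengitide, and 2.12, 2.84, 2.70 and 2.104 in BAPN+SB273005. The groups overlapped for Hoxb3 and Hoxb4 in every comparison.

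Hoxd8 had 0.439, 1.30 and 0.711 FPKM in PBS, 1.13, 0.960, 0.893 and 1.197 in BAPN, 1.94, 0.833 and 0.883 in BAPN+Cilengitide, and 1.46, 1.91, 1.72 and 0.917 in BAPN+SB273005. Of the 4 BAPN+SB273005 libraries, 3 lay above all PBS libraries and 1 lay inside them. Over the 14 libraries the SD was 17.6% of the mean for Hoxb3 and 20.3% for Hoxd9, but 106% for Hoxb6 and 109% for Hoxb7.

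The posterior share was small in every group. Groups 9 to 13 supplied 3.52% ± 0.0563 (SD, n = 3) of the summed Hox FPKM in PBS, 5.11% ± 1.11 (n = 4) in BAPN, 5.93% ± 0.651 (n = 3) in BAPN+Cilengitide and 4.82% ± 1.51 (n = 4) in BAPN+SB273005. The posterior sum itself averaged 1.66 FPKM in PBS, 1.93 in BAPN, 2.38 in BAPN+Cilengitide and 1.59 in BAPN+SB273005. The anterior sum averaged 28.2, 21.8, 19.5 and 17.5 FPKM in the same order, so a higher share need not mean more posterior RNA. By library the shares were 3.51%, 3.58% and 3.47% in PBS, 4.38%, 4.01%, 6.40% and 5.65% in BAPN, 5.29%, 6.60% and 5.91% in BAPN+Cilengitide, and 3.24%, 4.06%, 5.30% and 6.70% in BAPN+SB273005. They ran from 3.24% to 5.30% in the 6 libraries with 0 H2-Ea counts and from 4.01% to 6.70% in the other 8, and no test was made of this share. RNA of kidney, an organ whose development depends on posterior Hox genes, was read beside it: 18 kidney genes summed to 223 to 387 FPKM in every library, mostly Kap (159 to 319 FPKM). Lung markers were low, with 7 of 9 under 1 FPKM in every library. Skeletal muscle markers were uneven, with 11 genes summing to 2469 FPKM in PBS-2 and 1635 in BAPN-3 against 37.8 to 478 in the other 12. Hoxb6 in those 2 libraries was 0.856 and 1.14 FPKM.

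Genes that act with or upstream of the Hox code were described from lists chosen with earlier results known. Hox proteins bind DNA with TALE homeodomain partners, and 9 of 10 such genes were tested, of which 0 were called in any comparison. Pbx2 ran from 7.68 to 10.6 FPKM and Meis3 from 6.64 to 11.3. Meis1 had 3.21, 3.16 and 3.56 FPKM in PBS and 1.77 to 2.77 in the 11 BAPN-fed libraries. These did not overlap, a pattern whose share over all genes was not counted. The edgeR adjusted p of Meis1 was 0.27, 0.13 and 0.068 in BAPN, BAPN+Cilengitide and BAPN+SB273005 against PBS, so it was not called. Of 17 Polycomb and Trithorax genes, which keep Hox clusters silent or active, Rnf2 rose by 0.59 (log2, SE 0.13, edgeR adjusted p = 0.013) and Kdm6b, a demethylase of the silencing mark, fell by 0.59 (SE 0.17, adjusted p = 0.038) in BAPN+SB273005 against PBS. These 2 of 17 are a share no larger than that of all genes called there, 13.2%. The other 15 were not called, and 0 of 17 were called in the other 5 comparisons.

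Retinoic acid switches on 3′ Hox genes in the embryo. Of 13 tested genes of its pathway, 3 rose in BAPN+SB273005 against PBS, beside 7.82% of all genes: the receptor Rarg by 0.39 (log2, SE 0.11, edgeR adjusted p = 0.042), the synthetic enzyme Aldh1a1 by 0.87 (SE 0.24, adjusted p = 0.033) and the degrading enzyme Cyp26a1 by 4.61 (SE 1.38, adjusted p = 0.044). Cyp26a1 rested on 2 of the 4 libraries, with 2.88, 3.35, 0.310 and 0.135 FPKM. None of the 13 was called in the other 5 comparisons. Of 4 tested genes of a list drawn up for the regulation of Hox genes, 2 rose and 1 fell in BAPN+SB273005, and 2 rose and 0 fell in BAPN+Cilengitide, beside the same shares of all genes as for the markers above. Egr2, a hindbrain regulator of group 2 Hox genes that macrophages also express, rose by 1.37 in BAPN+SB273005 (log2, SE 0.27, edgeR adjusted p = 0.0078) and by 1.24 in BAPN+Cilengitide (SE 0.28, adjusted p = 0.024). Zfp703 was the one that fell, by 0.87 in BAPN+SB273005 (SE 0.21, edgeR adjusted p = 0.021).

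Transcripts from within the clusters were read beside their neighbours. Hotairm1, a noncoding transcript at the 3′ end of HoxA, had 4.09 to 6.22 FPKM, and its difference from PBS was -0.02 in BAPN+SB273005 (log2, 95% interval -0.41 to 0.37). Hoxaas2, antisense within the Hoxa3 gene body, had 3.55, 2.85 and 1.81 FPKM in PBS and 0.7895 to 2.57 in the 11 BAPN-fed libraries. It differed by -1.28 in BAPN+Cilengitide (SE 0.40, edgeR adjusted p = 0.083), -0.94 in BAPN (SE 0.37, adjusted p = 0.31) and -0.67 in BAPN+SB273005 (SE 0.37, adjusted p = 0.25). Hoxb3os had 0.435 to 1.62 FPKM and Hoxb5os 0.2496 to 2.17, the latter highest in BAPN+Cilengitide-1. Of the 11 tested genes within and beside the clusters, 0 were called in any comparison.

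Other positional factors were read in the same comparisons. Osr1, a lateral mesoderm factor, had 116, 108 and 95.1 FPKM in PBS and 30.8 to 65.6 in the 11 BAPN-fed libraries. It fell by 1.12 in BAPN+Cilengitide (log2, SE 0.21, edgeR adjusted p = 0.014) and by 1.18 in BAPN+SB273005 (SE 0.20, adjusted p = 0.0043). Foxf1, a splanchnic mesoderm factor, fell by 1.40 (SE 0.27, adjusted p = 0.014) and by 1.39 (SE 0.25, adjusted p = 0.0058). Meox1 and Meox2, paraxial mesoderm factors, rose in BAPN+SB273005 by 0.95 (SE 0.26, adjusted p = 0.034) and 0.83 (SE 0.22, adjusted p = 0.028). Of the 14 tested genes of that list, 3 rose and 2 fell in BAPN+SB273005, 1 rose and 2 fell in BAPN+Cilengitide, and 0 were called in BAPN against PBS. All genes called higher and lower were 7.82% and 5.38% in the first of these and 3.98% and 1.6% in the second. Of 19 tested outflow tract and neural crest factors, 2 rose and 0 fell in BAPN+SB273005, beside 7.82% of all genes higher. Of these, Tbx2 rose by 0.52 (SE 0.10, edgeR adjusted p = 0.0078), and 0 of 19 were called in the other 5 comparisons.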

How the data were processed

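RNA of ascending aorta was read in 14 libraries of 4 groups (PBS, BAPN, BAPN+Cilengitide and BAPN+SB273005), grouped by their titles. The submitters' processing notes name HISAT2 2.2.1, StringTie 2.1.6 and mm10, with no role or order. The authors deposited gene and transcript tables with FPKM and estimated counts per library. Strand, trimming and pooling settings were not given in the sources used here. The deposited FPKM served for levels. The deposited estimated counts, already whole numbers, were rounded and tested with edgeR 4.0.16 (quasi-likelihood, TMM) in one fit of all 14 libraries on the 13294 genes with FPKM of 1 or more in at least 3. Standard errors were worked back from the log2 difference and F. Alternatives used DESeq2 1.42.0, limma 3.58.1 on log2(FPKM + 1), log2(FPKM + 0.1) or log2(TPM + 1), other filters and normalization, the groups compared alone, a replicate block, libraries alike in H2-Ea, and each library left out. The TPM and H2-Ea fits were chosen after seeing the data.

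The script was tested on simulated data. Totals were 49027885 to 72584877 counts a library. Within groups the 18 pairs of libraries differed beyond counting noise, and each library was treated as 1 sample. Such spread cannot show whether each library is a separate animal. Same-numbered libraries of PBS and BAPN+Cilengitide correlated in their deviations from the group means (all 3 pairs over 0.1), so the fit with the replicate block is given beside that result. The Hox genes and the gene lists were chosen with earlier results of these data known. Hox genes with a mean of 1 FPKM in a group were given in every library, and up to 6 genes of each other list were named, called ones first by p, then by mean FPKM. Promoters came from RefSeq and exons from GENCODE vM21, whose gene coordinates equal those of the files for 31 of 33 Hox genes. No protein sequence was used here. Some genes are not reported here.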

Additional observations from a re-analysis of the deposited data

Results flagged for a closer look

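Hoxb7 in BAPN+SB273005-3 was far from the other 3 libraries of its group. It had 0.805 FPKM there against 0.379 to 0.404 FPKM in the others, a gap of 0.94 of the group's range, which is past Dixon's 95% limit. This was 1 of 30 group values examined in the 2 groups of 4 libraries (12 Hox genes and 3 shares by paralog group), and chance puts about 1 in 20 past the limit. The same library had the highest Hoxb6 of its group, 1.89 FPKM. Groups of 3, which include BAPN+Cilengitide, were not examined this way.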

How the results depend on the processing

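The count of Hox genes called in BAPN against PBS stayed at 0, and so did those in BAPN+Cilengitide against BAPN and BAPN+SB273005 against BAPN+Cilengitide. In BAPN+Cilengitide against PBS it was 2, and it was 1 with no filter, 1 with filterByExpr, 0 with only the 2 groups compared, 0 with limma on log2(TPM + 1), and 0 to 3 when 1 library was left out. In BAPN+SB273005 against PBS it was 3, and it was 1 with only the 2 groups compared, 0 in the libraries without H2-Ea counts (3 a group), and 1 to 3 when 1 library was left out. In BAPN+SB273005 against BAPN it was 0 and 1 with DESeq2. With a replicate block the counts against PBS were 0, 1 and 2: Hoxa4 was lost with Cilengitide (edgeR adjusted p = 0.060) and Hoxa2 with SB273005 (0.053). Of 19 pairs of libraries with the same number, 12 correlated above 0.1 (from -0.156 to 0.317). Among them were all 3 pairs of PBS with BAPN+Cilengitide and all 3 of BAPN+Cilengitide with BAPN+SB273005. Libraries with different numbers were not compared this way, so these correlations cannot show whether the numbers mark a pairing. Of 418 alternatives of 17 gene differences, 382 kept direction and side of the threshold, 32 lost the call and 3 gained one. The 1 that turned was Hoxb6 in BAPN+Cilengitide against PBS, at -0.10 without BAPN+Cilengitide-1 and 2.101 without PBS-1, the lowest and highest when 1 library was left out.

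The counts over all genes were 31, 742, 1754, 0, 4 and 0 and moved further: 2 to 480 in BAPN, 109 to 1465 in BAPN+Cilengitide and 498 to 2607 in BAPN+SB273005 against PBS, 0 to 21 in BAPN+Cilengitide and 0 to 395 in BAPN+SB273005 against BAPN, and 0 to 39 between inhibitors. The posterior share in PBS was 3.03% by counts and 2.85% by transcript sums, 0% in each group over genes that passed the filter (by construction), and without 1 library 3.49% to 3.54% in PBS, 4.68% to 5.48% in BAPN, 5.60% to 6.26% in BAPN+Cilengitide and 4.197% to 5.35% in BAPN+SB273005. By counts the central share fell from 36.4% to 24.8% in PBS and from 36.9% to 25.4% in BAPN. It fell from 44.1% to 32.5% in BAPN+Cilengitide and from 42.5% to 31.1% in BAPN+SB273005. Counts are not divided by exon length as FPKM is, so genes with long exons, such as Hoxa3 (6014 bases), weigh more in them. Few counts limit Hoxa6 and the posterior genes.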
